A study of Mus musculus with 4 samples.

Results

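Mature olfactory sensory neurons (OSNs) of the mouse main olfactory epithelium were described here for 1 cluster, named Dlg2+ V. by the authors for the gene *Dlg2* and for its ventral position. The members are the cells that carry this name in the deposited cluster annotation made without olfactory receptor genes. There were 797 of them, 233, 190, 148 and 226 in mice 1 to 4, out of 9539 clustered neurons in 10 clusters, 10519 mature OSNs, 15859 retained cells and 21809 barcodes. The cluster held 8.91%, 8.28%, 8.63% and 7.75% of the clustered neurons of the 4 mice (8.39% ± 0.50, SD, n = 4) and 11.9% ± 1.22 of those in the 5 ventral clusters. It was compared with the plain cluster named Ventral, which carries none of the subset markers in its name and held 4600 neurons.

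The 4 animals were male C57BL/6 mice (C57BL/6J in the methods), 8 weeks old, all kept under the same conditions, and no treatment or genotype separated them. Each gave 1 library of dissociated epithelium, sorted for nucleated live cells (Hoechst+/DRAQ7-), in which unique transcript molecules (UMIs) were counted from the 3′ ends of the transcripts. Library totals ran from 23157467 to 32382702 UMIs, and the summed Dlg2+ V. neurons of a mouse from 899310 to 1357985. Any pair of libraries shared 4 to 14 barcodes, and for none of them were both cells in the cluster.

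Each mature OSN expresses 1 receptor gene out of a very large family, and neurons with the same receptor send their axons to the same glomeruli of the olfactory bulb. The receptor also sets how much cAMP the neuron makes without odorant, and with it the level of a number of cell surface and calcium-binding proteins. Dlg2 (also called PSD-93) is a scaffold protein of the membrane-associated guanylate kinase family that anchors receptors and channels beneath neuronal membranes.

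The name held against its markers. *Dlg2* (chromosome 7, 90476672 to 92449247, GRCm38) was at 26.3, 22.1, 24.7 and 27.1 UMIs per 10000 in Dlg2+ V. neurons of mice 1 to 4, and at 1.68, 1.56, 1.82 and 2.09 in Ventral neurons. No mouse overlapped, and the level was also above that of the dorsal cluster of the same name, Dlg2+ D. (10.7 ± 1.07, SD, n = 4). These marker levels are a description, since the clusters were drawn on these genes. The median neuron held 17.5 to 20.3 UMIs per 10000 of *Dlg2* in Dlg2+ V., 4.54 to 6.60 in Dlg2+ D. and 0 to 0.873 in Ventral, so most members carried the transcript themselves. Microvillar cells of the group Mv2, which are not neurons, gave 0.561 to 0.690 UMIs per 10000 of *Dlg2*.

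*Nfix*, a nuclear factor I transcription factor of ventral neurons, was at 4.73 ± 0.48 in Dlg2+ V. and 5.52 ± 0.44 in Ventral, against 0.245 ± 0.15 in Dlg2+ D. and 0.418 ± 0.13 in the Dorsal cluster (UMIs per 10000, SD, n = 4). *Nqo1*, a quinone reductase that marks dorsal neurons, was at 0.493 against 25.2 in Dorsal neurons. *Omp*, the marker of mature OSNs, was at 69.6 ± 3.3 and *Gap43*, a growth-cone protein of immature neurons, at 0.0300. Markers of other cells were low. The 6 sustentacular genes summed to 0.246 UMIs per 10000 in Dlg2+ V. and 0.286 in Ventral, the immune genes to 0.049 and 0.069 with *Ptprc* at 0, and the microvillar genes to 0.089 and 0.085 with *Trpm5* at 0. The 5 horizontal basal genes summed to 0.024 and 0.033, and the 13 genes of immature neurons to 14.5 ± 0.81 and 17.9 ± 0.56. The hemoglobin list summed to 0.103, 3.42, 0.273 and 0.632 in the 4 mice against 0.115, 1.35, 0.295 and 0.948 in Ventral, so mouse 2 was high in both clusters. The median neuron of the 2 clusters was of similar depth (4258.5 to 7213 UMIs in Dlg2+ V., 4009 to 6628.5 in Ventral) and mitochondrial share (1.19% ± 0.18 and 1.32% ± 0.20).

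Between the 2 clusters a small set of non-receptor genes stood far apart. The values that follow are a description without a test, because the authors clustered the cells on these same genes. Of 3652 non-receptor genes with at least 0.5 UMIs per 10000 in either cluster, 12 (0.329%) were at least 2-fold higher in Dlg2+ V. in each of the 4 mice and 6 (0.164%) at least 2-fold lower.

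*S100a5* (chromosome 3, 90608523 to 90611780), a calcium-binding protein of OSNs, was by level the foremost of them. It gave 633, 510, 628 and 620 UMIs per 10000 in Dlg2+ V. and 210, 185, 217 and 220 in Ventral. Since 598 ± 59 of every 10000 UMIs of a Dlg2+ V. neuron were *S100a5* (n = 4), all other levels on this scale are lowered slightly. *Pcp4l1*, a small relative of the calmodulin-binding protein Pcp4, was at 52.6, 48.4, 59.98 and 56.4 against 13.9, 14.2, 18.5 and 16.5. Both genes had no overlap between the clusters.

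Genes of low abundance made up the remainder. *Rasgrp4*, an activator of Ras, was at 1.02, 0.979, 1.45 and 1.47 UMIs per 10000 against 0.177, 0.281, 0.246 and 0.258 in Ventral. *Nphs1* encodes nephrin, an immunoglobulin-type adhesion protein that pairs with Kirrel proteins at kidney podocyte junctions, and was at 1.17, 1.03, 1.24 and 1.35 against 0.143, 0.227, 0.305 and 0.179. *Ntf3*, the neurotrophin NT-3, was at 0.803, 0.778, 0.838 and 1.01 against 0.255, 0.231, 0.313 and 0.342. For each of these the lowest Dlg2+ V. mouse lay above the highest Ventral mouse. The others were *S100a2*, *S100a3*, *S100a6*, the G-protein regulator *Rgs7*, the kinase gene *Dclk3* and *Hectd2os*, which is annotated antisense to *Hectd2*.

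Among the 6 lower genes *Calb2*, the calcium-binding protein calretinin and the name-giving marker of another ventral cluster, was almost absent, at 0.0368, 0.0111, 0.0376 and 0 UMIs per 10000 against 0.778, 0.820, 0.748 and 0.707. *Rims3*, a presynaptic active-zone protein, was at 0.081, 0.10, 0.132 and 0.122 against 0.578, 0.764, 0.669 and 0.632. *Mdga2* was at 0.166 ± 0.043 against 0.541 ± 0.033, and *Efna5*, *Cotl1* and *Cpn1* completed the group. The dorsal counterpart shared most of this profile. Of the 12 higher genes 10 were also above the Dorsal cluster in Dlg2+ D. in 4 of 4 mice, 9 of them at least 2-fold, and of the 6 lower genes 5 were below it. *Hectd2os*, *Dclk3* and *Mdga2* were the exceptions, although *Hectd2os*, at 0.121 in Dlg2+ D. and 0.0116 in Dorsal, and *Dclk3*, at 0.556 and 0.41, differed in the same direction on the mean.

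**Figure D1:**
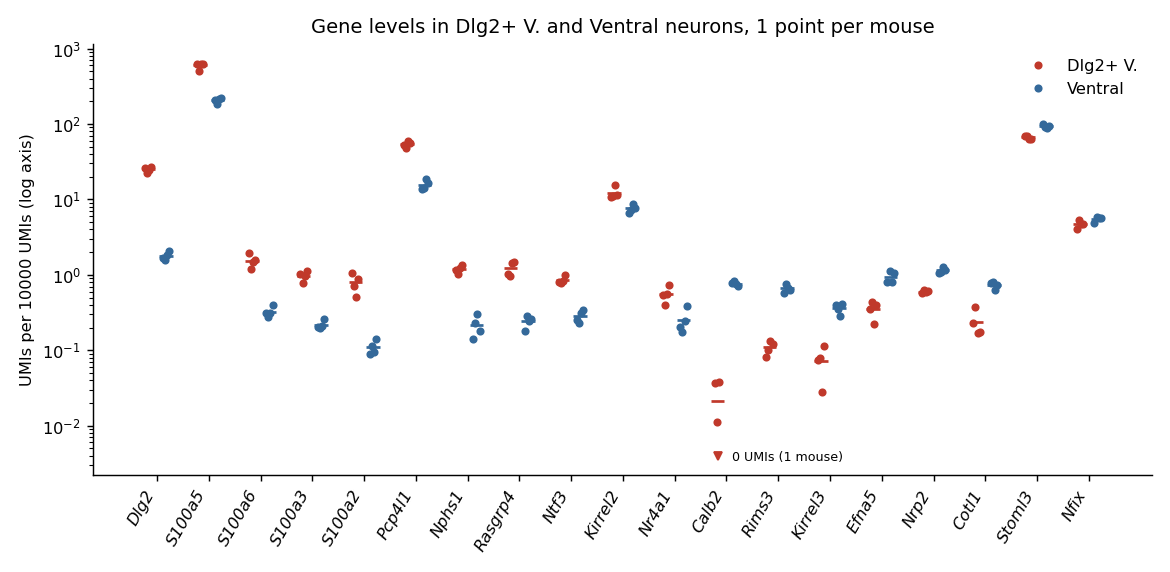
Levels of 19 genes in Dlg2+ V. (red) and Ventral (blue) neurons, in UMIs per 10000 UMIs on a log axis, with 1 point per mouse and a bar for the mean of 4 mice; the triangle marks the mouse with 0 UMIs of Calb2. Dlg2 sat between 22.1 and 27.1 against 1.56 to 2.09, S100a5 between 510 and 633 against 185 to 220, and Calb2 at or below 0.0376 against at least 0.707.

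To measure these genes in cells grouped by something other than their own transcriptome, the neurons of each mouse were next grouped by receptor. A receptor was put in the Dlg2+ V. set if over 50% of its clustered neurons in the other 3 mice were in Dlg2+ V. (at least 3 neurons there), and in the Ventral set likewise. All mature neurons of the mouse with such a receptor were then summed, whatever their own cluster. The Dlg2+ V. sums held 131, 150, 72 and 170 neurons, drawn with sets of 43, 60, 61 and 62 receptors defined in the other mice. Of these neurons 67.2%, 63.3%, 76.4% and 62.4% were themselves labeled Dlg2+ V. and 27.5%, 32%, 22.2% and 32.9% Ventral. The remainder were in neither cluster. The Ventral sums held 726 to 1362 neurons, 5.43% to 9.23% of them labeled Dlg2+ V., so that both groups were mixtures. The grouping is not wholly independent of the genes, because the 4 mice were clustered jointly.

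Of 11182 non-receptor genes tested, 481 (4.30%) were higher in neurons with Dlg2+ V. receptors and 520 (4.65%) lower (edgeR quasi-likelihood test with the mouse as a block, Benjamini-Hochberg adjusted p under 0.05). The median log2 change of all genes was -0.001, and 2092 genes had an unadjusted p under 0.05. Of the 481 higher genes 391 (81.3%) were higher in 4 of 4 mice by UMIs per 10000. Of the 520 lower genes 507 (97.5%) were lower in 4 of 4. Over all genes tested these shares were 8.09% and 19.5%. The genes were called in these same mice, so a shared direction follows in part from the call and is no further support. The calls used TMM scaling, which UMIs per 10000 do not. Leaving out a mouse lowered the counts, and it also redrew the receptor sets, since a set was built from the other mice. They were 204 and 213 without mouse 1, 300 and 314 without mouse 2, 362 and 354 without mouse 3 and 242 and 230 without mouse 4. Between 10546 and 10861 genes were then tested. DESeq2 called 232 and 195, all of them among the genes called by edgeR. With 3 residual degrees of freedom a gene's standard error comes mainly from the spread shared across genes, so that the smallest p-values overstate what 4 mice can show.

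The 18 genes set apart by the description were chosen in the same mice and in largely the same neurons, so their direction in this comparison is no independent support. *Dlg2*, which named the cluster, was at 3.00 on the log2 scale (SE 0.04), given as a description. *Rasgrp4* was at 2.48 (SE 0.12, edgeR adjusted p 4.8e-73), *Nphs1* 2.41 (SE 0.12, 1.08e-66) and *Ntf3* 1.5 (SE 0.13, 1.54e-25). *Rgs7* was at 1.27 (SE 0.13, 7.4e-18) and *Hectd2os* at 1.53 (SE 0.11, 4.93e-35). In the other direction *Calb2* changed by -3.77 (SE 0.19, 1.42e-65), *Rims3* by -2.99 (SE 0.22, 1.78e-34), *Cotl1*, which binds F-actin, by -1.48 (SE 0.15, 2.33e-18) and *Cpn1*, the catalytic chain of carboxypeptidase N, by -1.31 (SE 0.17, 2.67e-12). *Scgn* (secretagogin, a calcium sensor) at -1.46 (SE 0.15, 1.18e-18) and *Stbd1*, a glycogen-binding protein, at -1.26 (SE 0.15, 8.12e-15) were also among the 8 largest downward changes of genes with at least 0.5 UMIs per 10000 and 1 direction in 4 of 4 mice. The calls of the genes named here other than *Dlg2* held in all 10 alternative analyses.

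The genes that follow OSN activity and sort axons changed as a list in both directions. Of the 13 genes on it 11 could be tested, 5 were higher (45.5%, against 4.30% of all genes) and 3 lower (27.3%, against 4.65%), and the median log2 change was 0.15 against -0.001 over all genes. Higher were *S100a5* (log2 1.45, SE 0.028, edgeR adjusted p 2.97e-214), *Pcp4l1* (1.72, SE 0.032, 1.98e-222), the ephrin receptor gene *Epha5* (0.66, 1.54e-43), the protocadherin gene *Pcdh8* (0.68, 1.15e-06) and *Kirrel2*, a homophilic adhesion molecule (0.67, SE 0.04, 1.22e-47). *Kirrel2* was at 10.8, 11.3, 15.4 and 11.3 UMIs per 10000 in the Dlg2+ V. cluster and 6.69, 7.23, 8.70 and 7.70 in Ventral. Lower were *Kirrel3*, an adhesion molecule of the same family (log2 -2.46, SE 0.27, 1.44e-16), and 2 ephrin genes, ligands of Eph receptors, *Efna5* (-1.66, SE 0.14, 1.16e-25) and *Efna3* (-0.90, SE 0.066, 1.3e-34). *Kirrel3* was at 0.0736, 0.0778, 0.0282 and 0.112 UMIs per 10000 in Dlg2+ V. and 0.402, 0.349, 0.282 and 0.404 in Ventral. All 8 calls held in every alternative analysis. The Kirrel and the Eph and ephrin molecules among them are known for opposite responses to receptor-driven activity in OSN axons. Whether activity differed between the groups was not tested. The list was assembled with knowledge of earlier results on these animals, so its direction is not independent evidence. *S100a5*, *Pcp4l1* and *Efna5* were also among the genes set apart by the description in the same mice. Their p-values and their part in the shares above are therefore no independent support.

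Immediate early genes, which are transcribed within minutes of neuronal activation or of handling, were also mostly higher. Of 9 tested 6 were higher (66.7%, against 4.30% of all genes) and 1 lower (4.65% of all genes), with a median log2 change of 0.62. *Nr4a1* changed by 1.28 (SE 0.15, edgeR adjusted p 2.81e-15), *Egr1* by 1.42 (SE 0.20, 1.61e-10) and *Junb* by 0.97 (SE 0.15, 2e-08), and these 3 held in every alternative. *Nr4a1* was at 0.538, 0.40, 0.555 and 0.734 UMIs per 10000 in Dlg2+ V. against 0.201, 0.173, 0.244 and 0.384 in Ventral, and mouse 4 was highest in both. *Fos* (log2 0.62, SE 0.092) and *Dusp1* (0.39) lost their calls without mouse 1 (edgeR adjusted p 0.169 and 0.0866), and *Btg2* (0.74) lost its call without mouse 1, 2 or 4 (0.217, 0.241 and 0.25). *Btg2* also lost it with DESeq2 (adjusted p 0.22), and in edgeR with a receptor share over 70% (0.0633) and after thinning (0.224). *Jun*, the lower gene at -0.42, lost its call without mouse 1 or 4 (0.165 and 0.293). The dissociation was the same for both clusters, and its part in these levels was not tested.

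Genes of the cascade that turns odorant binding into current were lower than in neurons with Ventral receptors. Of 18 genes tested 11 were lower (61.1%, against 4.65% of all genes) and 1 higher (5.56%, against 4.30%), with a median log2 change of -0.32. *Gnal*, the stimulatory G-protein subunit, changed by -0.46 (edgeR adjusted p 4.37e-33), the cyclase gene *Adcy3* by -0.38 (5.9e-17), the cAMP-gated channel subunits *Cnga2* by -0.42 (4.2e-16) and *Cnga4* by -0.57 (SE 0.055, 5.43e-21), and the calcium-gated chloride channel *Ano2* by -0.52 (SE 0.064, 5.47e-13). *Cnga4* was at 3.89, 3.71, 3.34 and 3.63 UMIs per 10000 in Dlg2+ V. and 5.41, 5.37, 5.17 and 5.28 in Ventral. *Stoml3*, a stomatin-like protein of OSN cilia, was at 70.4, 70.3, 64.1 and 63.3 against 101, 91.9, 89.8 and 94.8 (log2 -0.56, SE 0.03, 7.88e-58). The clusters did not overlap in either gene. *Cnga2* and *Adcy3* both had lower means still in a pair of other ventral clusters. *Cnga2* was at a mean of 5.78 UMIs per 10000 in Dlg2+ V., 8.22 in Ventral, 3.97 in Cd36+ V. and 4.35 in Cd55+ V., and *Adcy3* at 9.55, 12.4, 6.80 and 8.14, with no test of these differences. The 9 lower calls of *Gnal*, *Adcy3*, *Cnga2*, *Cnga4*, *Ano2*, *Slc12a2*, *Pde4a*, *Rtp1* and *Stoml3* held in every alternative. *Cngb1* (-0.32) was lost without mouse 4 (adjusted p 0.0587). The higher gene, the exchanger *Slc24a4* (0.45), was lost without mouse 2, 3 or 4 (0.587, 0.0588 and 0.0834). *Omp* was not called between the receptor groups (-0.08, edgeR adjusted p 0.0982). Between the clusters it was at 69.1, 72.7, 65.2 and 71.3 UMIs per 10000 in Dlg2+ V. and 74.8, 82.7, 76.0 and 80.7 in Ventral, lower without overlap.

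Genes of zonal position were less clear-cut. Of the 5 ventral genes tested 4 were lower and 1 higher (4.65% and 4.30% of all genes), with a median log2 change of -0.34. *Nrp2*, a receptor for class 3 semaphorins whose level grades across the epithelium, was at 0.574, 0.634, 0.584 and 0.602 UMIs per 10000 in Dlg2+ V. against 1.06, 1.10, 1.29 and 1.16 in Ventral, and its log2 change was -1.32 (SE 0.12, edgeR adjusted p 4.18e-23), lower in 4 of 4 mice. *Nfix* changed by -0.22 (SE 0.05, 0.000442), which was not called without mouse 4 (0.438), and *Nfia* by -0.73, not called without mouse 2 or 4 (0.0817 and 0.0546). *Nfib* (-0.34) was lost without mouse 1 or 4 (0.088 and 0.393) and *Ncam2* (0.32) without mouse 4 (0.11). Of the 4 dorsal genes 2 were called higher (50%, against 4.30% of all genes), both at low levels. *Acsm4*, an acyl-CoA synthetase, was at 0.254 ± 0.046 UMIs per 10000 in Dlg2+ V. and 0.171 ± 0.037 in Ventral, far below the 5.13 of Dorsal neurons. Between the receptor groups its log2 change was 1.96 (edgeR adjusted p 2.18e-11), a wider gap than between the clusters. The receptor groups also held some neurons of neither cluster, and their part in this value was not tested. The log2 change of *Acsm4* fell to 0.48 without mouse 1 and 1.11 without mouse 2, and the gene was then not called (adjusted p 0.765 and 0.14). *Nqo1* (0.70, SE 0.15) was higher in 3 of 4 mice. It was not called without any 1 of mice 1 to 4 (0.966, 0.962, 0.198 and 0.623), and its log2 change without mouse 2 was -0.04.

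Markers of the other OSN subsets were mostly lower. Of 8 tested 5 were lower (62.5%, against 4.65% of all genes) and 1 higher (12.5%, against 4.30%), with a median log2 change of -0.73. *Calb2* and *Cd55* name other clusters, and the receptor sets rest on the cluster labels. Lower values of such markers are thus in part built in. Besides *Calb2*, the secreted growth factor gene *Ptn* changed by -0.61 (SE 0.084, edgeR adjusted p 7.73e-11) in every alternative. *Cd55*, a complement regulator that names 2 other clusters, changed by -0.84 but not past the threshold without mouse 1 (0.241), *Tppp3* by -1.07 but not without mouse 2 (0.0747), and *Adam28* by -0.34 but not without mouse 3 or 4 (0.105 and 0.0501). *Mustn1*, a small muscle-associated protein, was higher at 2.76 (SE 0.50, 1.97e-06), on 0.118, 0.0778, 0.0565 and 0.0816 UMIs per 10000 in Dlg2+ V. against 0.0142 to 0.0221 in Ventral. It was too rare to be tested without mouse 4 or without the block. The authors found *Mustn1* higher after odorant exposure and raised it as a possible activity marker of OSNs.

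Ion channel and synaptic genes divided. Of 23 voltage-gated and related channel genes tested 8 were higher (34.8%, against 4.30% of all genes) and 6 lower (26.1%, against 4.65%), with a median log2 change of -0.03, close to that of all genes. The calls that held in every alternative were the auxiliary sodium channel subunits *Scn3b* (0.48, edgeR adjusted p 8.73e-10) and *Scn4b* (0.48, 1.26e-08) and the BK channel subunit *Kcnmb3* (0.71, SE 0.086, 1.1e-13) upward. Downward they were the sodium channel *Scn9a* (-0.32, 8.08e-10), the pacemaker channel *Hcn2* (-0.67, SE 0.095, 2.52e-10) and the potassium leak channel *Kcnk10* (-0.84, SE 0.14, 2.55e-07). *Hcn2* was at 0.795, 1.08, 0.772 and 1.09 UMIs per 10000 in Dlg2+ V. and 1.33, 1.73, 1.54 and 1.59 in Ventral, without overlap. Of 17 presynaptic and neuromodulator genes 7 were higher (41.2%, against 4.30% of all genes) and 1 lower (5.88%, against 4.65%), with a median of 0.16. *Rims3* (-2.99), described above, is a presynaptic gene that was not on this list. The vesicle protein genes *Syn2* (0.60, SE 0.094, 1.97e-08), *Cplx2* (0.47, 1.92e-09) and *Syt7* (0.46, 1.59e-09) and the neuropeptide gene *Cartpt* (0.54, SE 0.048, 1.09e-24) held in every alternative. *Cartpt* was at 6.88, 6.38, 6.87 and 5.72 UMIs per 10000 in Dlg2+ V. and 5.45, 4.82, 5.23 and 5.49 in Ventral.

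The scaffold family of Dlg2 itself gave little. Of 19 members and partners tested 2 were higher and 2 lower (10.5% each way, against 4.30% and 4.65% of all genes, median -0.09), and none of these 4 calls held in every alternative. The paralogs *Dlg1* (0.14), *Dlg3* (-0.55) and *Dlg4* (0.15), which encode scaffolds of the same kind, were not called. The largest of the 4, the presynaptic adhesion gene *Nrxn2* (-1.17, SE 0.31, edgeR adjusted p 0.00411), was lost without mouse 1, 2 or 4 (0.24, 0.0754 and 0.213), and the kinase gene *Fyn* (0.90) likewise (0.175, 0.533 and 0.168). *Kcnj2* (0.38) was lost without any 1 mouse (0.0907, 0.235, 0.312 and 0.412). Among 12 protocadherins and adhesion genes tested 2 were higher (16.7%) and 3 lower (25%), with a median of -0.006. Among 11 axon guidance genes 2 were higher (18.2%) and 1 lower (9.09%), with a median of -0.22. These shares lay above the 4.30% and 4.65% of all genes, but no call on these 2 lists held throughout. Genes of these kinds that stood on the zone and axon-sorting lists are not counted here, and the calls of *Pcdh8*, *Kirrel2*, *Kirrel3*, *Epha5*, *Efna5*, *Efna3* and *Nrp2* held in every alternative. Of 13 immature neuron genes 1 was higher (7.69%, against 4.30% of all genes) and 2 lower (15.4%, against 4.65%), with a median of -0.07. *Stmn4*, a microtubule regulator, changed by -0.43 (7.79e-14) in every alternative. No gene of the sustentacular, microvillar, immune or blood lists was called, of 4, 1, 1 and 4 tested, and no horizontal basal gene was abundant enough to be tested.

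**Figure D2:**
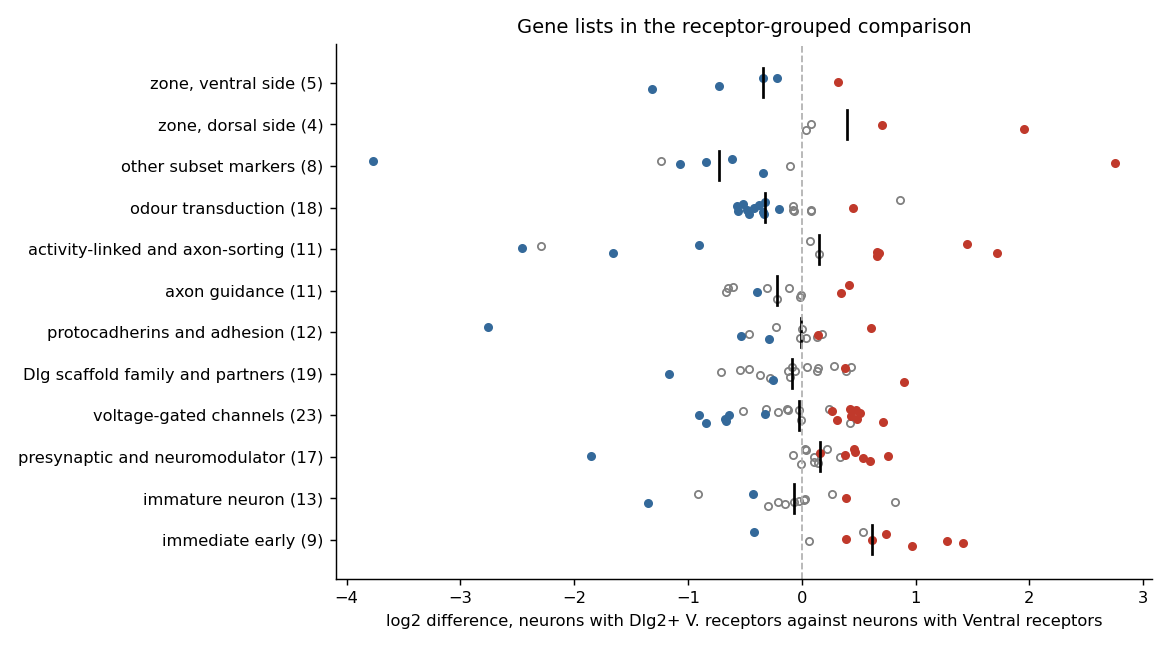
Log2 difference between neurons with Dlg2+ V. receptors and neurons with Ventral receptors for each tested gene of 12 lists, with the number tested in brackets. Red points were called higher and blue points lower (edgeR adjusted p under 0.05), open points were not called, and black bars are list medians, which ran from -0.73 for other subset markers to 0.62 for immediate early genes.

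Several *S100a* genes in the neighborhood of *S100a5* on chromosome 3 were higher. Only *S100a* genes of this neighborhood were listed, so their closeness follows from that choice. In the run from *S100a13* to *S100a6*, *S100a13* (log2 0.66, edgeR adjusted p 1.62e-12), *S100a3* (1.92, 1.62e-39), *S100a2* (2.75, 3.3e-55), *S100a4* (1.92, 6.82e-11), *S100a5* and *S100a6* (2.25, SE 0.10, 1.72e-75) were all called, whereas *S100a1* at one end (0.65, 0.109) and *S100a8* and *S100a9* at the other (0.23 and 0.34) were not. *S100a14* and *S100a16*, between *S100a13* and *S100a3*, were too low to be tested. *S100a2*, *S100a3*, *S100a5* and *S100a6* were among the genes set apart by the description in the same mice. Their p-values here are therefore no independent support. The annotated span of *S100a3* (90560578 to 90602702) contains that of *S100a2* (90590247 to 90591508). The UMIs of the 2 genes were counted separately, and overlap of their exons was not examined. All were minor beside *S100a5*. *S100a6* amounted to 0.259% of the *S100a5* level in Dlg2+ V. and 0.156% in Ventral, and *S100a2* to 0.132% and 0.0525%. The share of *S100a13* was 0.263% against 0.498%, so the neighbors did not move in a fixed ratio to *S100a5*.

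Receptor transcripts were not used to draw the clusters, so the receptor make-up could be tested. The 797 Dlg2+ V. neurons carried 195 receptor identities, against 572 among Ventral neurons and 798 in all. Of the 195, 27 were found in the cluster in all 4 mice, 69 in 1 mouse and 58 in a single neuron. No identity was a trace amine-associated receptor. The 10 most frequent identities held 22.8% of the cluster, and the corresponding figure for Ventral was 12.0%. Most identities were not exclusive. Of the 195, 157 also occurred in Ventral and 46 in Dlg2+ D., and 65 identities with over 50% of their neurons in the cluster accounted for 423 of its neurons (53.1%). The genomic window of class I receptors on chromosome 7 supplied 13 neurons (1.63%) of 4 identities, against 1.20% of Ventral neurons.

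Of 183 receptors with at least 10 neurons in the 2 clusters together, 19 (10.4%) were over-represented in Dlg2+ V. and 13 (7.10%) under-represented (edgeR quasi-likelihood test on neuron counts, mouse as block, Benjamini-Hochberg adjusted p under 0.05), and 63 had an unadjusted p under 0.05. The 19 made up 32.6% of Dlg2+ V. neurons and 2.20% of Ventral neurons, and 16 of them had the higher share in 4 of 4 mice. The 13 made up 14.6% of Ventral neurons (671) and 1 neuron of Dlg2+ V. A receptor could enter the test on its neurons in 1 cluster alone. Of the 183, 111 had none in Dlg2+ V., among them 12 of the 13, and 1 of the 19 had none in Ventral. The 13 are thus not a count of the receptors missing from the cluster. Neurons of 1 receptor are few, and most calls in either direction did not hold in every analysis with 1 mouse left out. The counts over and under were 10 and 2 without mouse 1, 8 and 1 without mouse 2, 13 and 3 without mouse 3 and 3 and 0 without mouse 4, of 133, 146, 152 and 122 receptors that then had enough neurons. Without mouse 4, 11 receptors over and 12 under had an unadjusted p under 0.05 in the same edgeR test, counted over all 122. Of the 19, *Olfr1326-ps1* and *Olfr129* were called in all 4 of these analyses.

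*Olfr1326-ps1* (chromosome X, 74569153 to 74574888), annotated as protein coding in the files despite its name, was the most frequent identity. It was carried by 11, 12, 4 and 7 Dlg2+ V. neurons of mice 1 to 4 and by 3, 1, 0 and 1 Ventral neurons, so that 87.2% of its 39 neurons were in the cluster. Its share was 4.21% ± 1.65 of Dlg2+ V. and 0.102% ± 0.11 of Ventral (log2 5.11, SE 0.72, edgeR adjusted p 6.48e-10). *Olfr129*, one of the receptors near the major histocompatibility complex on chromosome 17, was carried by 5, 9, 4 and 2 against 2, 1, 0 and 0 neurons (log2 4.90, SE 0.93, 1.97e-05).

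Further receptors were called over-represented. *Olfr56* was found in 4, 1, 1 and 5 Dlg2+ V. neurons and in no Ventral neuron, at least 21.2-fold over against a floor of 3 neurons in the whole Ventral group, but too rare to be tested without mouse 1 or 4. *Olfr1219* had 0, 1, 4 and 9 neurons against 0, 0, 1 and 0, so its share rested on mice 3 and 4. Without mouse 4 it had too few neurons to be tested. *Olfr1018* (1, 8, 2 and 6 against 2, 1, 0 and 1) and *Olfr370* (4, 5, 2 and 7 against 1, 3, 1 and 1) had log2 ratios of 4.31 (SE 0.96) and 3.95 (SE 0.87), and neither was called without mouse 4 (edgeR adjusted p 0.0666 and 0.0677).

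In the opposite direction, *Olfr1348* and *Olfr1226* had 78 and 76 Ventral neurons and none in Dlg2+ V., at least 4.50-fold and 4.39-fold under against the same floor of 3 neurons (edgeR adjusted p 0.00213 and 0.00273). Both lost their calls without mouse 4 (0.113 each), and *Olfr1226* also without mouse 2 (0.0651). The exception among the 13 was *Olfr239*, with 1 of its 71 neurons in Dlg2+ V. (log2 -3.51, SE 1.11, 0.015). It was called without mouse 3 (0.0331) but not without mouse 1, 2 or 4 (0.11, 0.0962 and 0.189).

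**Figure D3:**
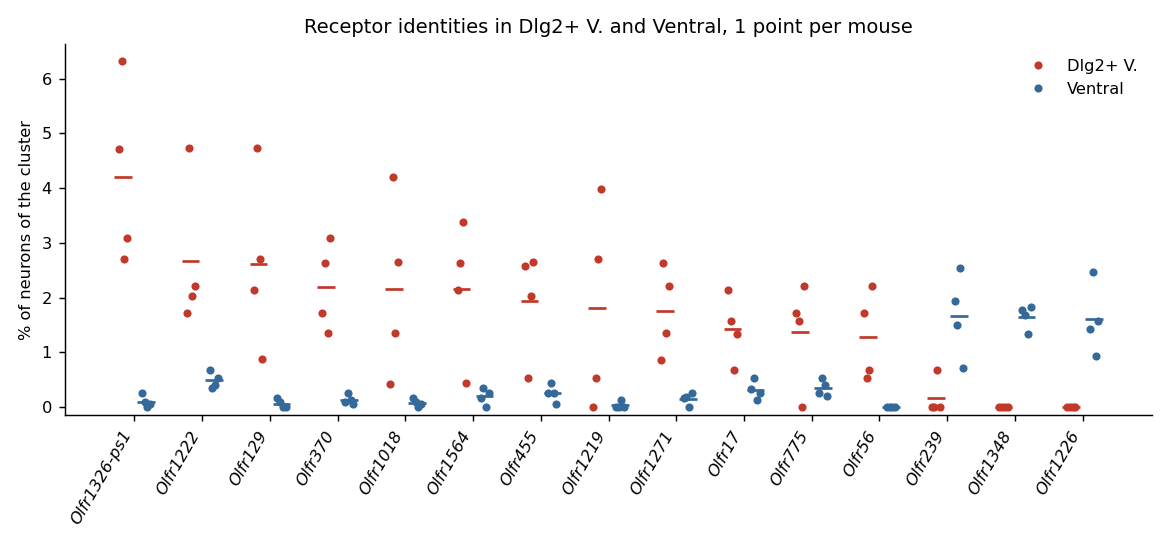
Share of the neurons of Dlg2+ V. (red) and of Ventral (blue) that carry each of 15 receptor identities, in percent, with 1 point per mouse and a bar for the mean of 4 mice. Olfr1326-ps1 made up 2.70% to 6.32% of Dlg2+ V. and at most 0.253% of Ventral, whereas Olfr1348 and Olfr1226 were at 0 in Dlg2+ V. in all 4 mice.

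Some receptor populations were divided between the clusters. Of 134 populations of at least 20 clustered neurons, 12 had 34.8% to 63.6% of their neurons in Dlg2+ V. *Olfr1222*, the largest of them with 44 neurons, had 4, 9, 3 and 5 in Dlg2+ V. and 8, 4, 3 and 8 in Ventral (log2 2.35, SE 0.67, edgeR adjusted p 0.00556). It was thus over-represented relative to the sizes of the clusters, although not without mouse 2 or 4 (0.192 and 0.167). *Olfr17*, with 12 of 27 neurons in the cluster, was not called (0.0726).

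The level of *Dlg2* across receptor populations is given as a description, since *Dlg2* was among the genes that placed the neurons. Of populations with at least 10 clustered neurons, the 261 with none in Dlg2+ V. had a median *Dlg2* level of 0.791 UMIs per 10000, the 51 with a share under 30% 5.98, the 30 with 30% to 70% 12.6 and the 11 above that 30.6. Within populations that had at least 5 neurons in both clusters, *Dlg2* was higher in the Dlg2+ V. neurons in 31 of 31, as the cluster labels largely fix, with medians of 21.3 and 3.72. The latter, for Ventral neurons of these populations, lay above the 1.79 ± 0.23 of all Ventral neurons. Populations with no neuron in Dlg2+ V. reached 36.4 UMIs per 10000. The highest, *Olfr599*, named after its value was seen, had none of its 11 clustered neurons in Ventral either and so lay outside both clusters.

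**Figure D4:**
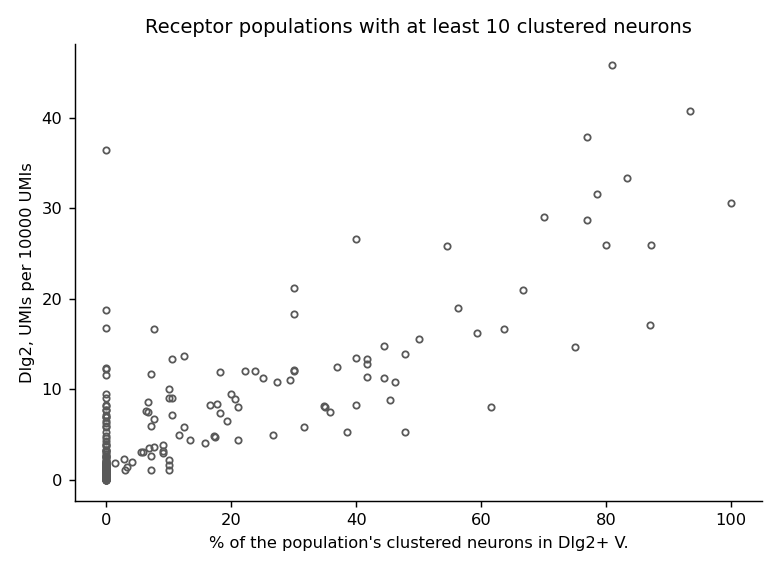
Each circle is 1 receptor population with at least 10 clustered neurons, placed by the percentage of its clustered neurons in Dlg2+ V. and by its Dlg2 level in UMIs per 10000 UMIs. Most populations sit at 0% with a median of 0.791, and the 11 populations above 70% lie between 14.7 and 45.9.

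The receptor genes of the cluster were spread over the genome. The 42 receptors with over 50% of at least 5 clustered neurons in Dlg2+ V. lay on 13 chromosomes, and the 258 such receptors of Ventral on 17. Chromosome 2 held 12 of the 42 (28.6%) and 74 of the 258 (28.7%). Chromosome 17 held 7 (16.7%) against 14 (5.43%), and chromosome 7 held 3 (7.14%) against 42 (16.3%). These shares are given without a test. Among receptors with another of the combined set on the same chromosome, the nearest gene was a Dlg2+ V. receptor for 6 of 41 in the cluster (14.6%) and for 28 of 256 in Ventral (10.9%). Dlg2+ V. receptors made up 14% of the combined set, and no test of these shares was run. No distance limit was set. Among the 6, *Olfr464* and *Olfr1342* lay 13547050 and 59899770 bases from their nearest gene.

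The translated proteins of the 2 sets were about as different from one another within a set as between sets. The median identity was 40.9% within Dlg2+ V. receptors, 40.3% within Ventral receptors and 40.5% between them (longest annotated isoform, GENCODE M21). The closest protein was a Dlg2+ V. receptor for 8 of the 42 in the cluster (19.0%) and 26 of the 254 of Ventral (10.2%), where Dlg2+ V. receptors made up 14.2% of the proteins compared. These shares were not tested. Closely related pairs existed inside the cluster, such as *Olfr1217* and *Olfr1219* (93.1% identical) and *Olfr119* and *Olfr129* (91.6%).

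They also existed across it. On chromosome 17, *Olfr55* (33168447 to 33180753) had none of its 75 clustered neurons in Dlg2+ V., *Olfr239* (33191302 to 33202506, plus strand) 1 of 71, *Olfr1564* (33211206 to 33221690, minus strand) 16 of 26 and *Olfr63* (33264676 to 33275644) 10 of 13. *Olfr239* and *Olfr1564* are 90.7% identical in protein, lie 8700 bases apart and had 1.41% and 61.5% of their neurons in Dlg2+ V. *Olfr1564* was carried by 5, 5, 5 and 1 Dlg2+ V. neurons and 2, 4, 0 and 4 Ventral neurons (log2 3.11, SE 0.84, edgeR adjusted p 0.00395). It was not called without mouse 2 or 3 (0.0651 and 0.0729). The last 120 coding bases before the stop codon, at chr17:33199887-33200006 on the plus strand and chr17:33215398-33215517 on the minus strand of GRCm38, are printed to show where this end of the 2 genes differs, with the 22 bases that differ in capitals. The rest of the coding sequence is not shown.
Olfr239: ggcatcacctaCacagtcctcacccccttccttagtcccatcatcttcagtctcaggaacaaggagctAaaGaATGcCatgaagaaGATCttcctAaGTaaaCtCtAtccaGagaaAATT
Olfr1564: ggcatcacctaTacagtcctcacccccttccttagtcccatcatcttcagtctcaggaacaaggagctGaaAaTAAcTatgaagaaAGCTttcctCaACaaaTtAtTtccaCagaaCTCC
Most of the capitals lie toward the 3′ end, in the part that encodes the cytoplasmic tail of the receptor.

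The amount of receptor transcript was lower in the cluster than in Ventral. The receptor assigned to a neuron gave on average 72.3, 80.3, 70.8 and 82.8 UMIs per 10000 in Dlg2+ V. neurons of mice 1 to 4 and 93.7, 98.5, 96.0 and 98.1 in Ventral neurons. The ranges did not overlap, and the mean log2 ratio was -0.34 ± 0.085 (SD, n = 4), 0.791-fold. With 4 mice the exact two-sided sign-flip test cannot give a p below 0.125, the value found here. The gap was smaller within receptors. Over the 58 receptors with at least 3 neurons in each cluster the mean log2 ratio within receptors was -0.14 ± 0.096, lower in 4 of 4 mice (exact p 0.125). The lower level was not particular to Dlg2+ V. Dlg2+ D. was at a mean of 75.7 UMIs per 10000 against 100.5 in Dorsal. Among the other ventral clusters Calb2+ V. was at 82.4, Cd36+ V. at 86.3 and Cd55+ V. at 113, against 96.6 in Ventral. No test of these differences was run.

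Neurons in which at least 2 receptors were detected made up 30.9%, 23.2%, 39.2% and 20.8% of Dlg2+ V. and 33.0%, 31.6%, 42.7% and 25.5% of Ventral. Thinned to 3000 UMIs per neuron, the shares were 17.3%, 15.7%, 21.0% and 15.98% against 20.9%, 22.3%, 25% and 19.8%, a difference of -4.51 ± 1.42 percentage points that was negative in 4 of 4 mice (exact sign-flip p 0.125, the smallest possible). Thinning left out 13, 37, 5 and 32 Dlg2+ V. and 118, 295, 82 and 306 Ventral neurons. The mean thinned share was 17.5% in Dlg2+ V. and 22.0% in Ventral. It was 16.1% in Calb2+ V., 15.3% in Cd55+ V. and 22.4% in Cd36+ V., so the low share was not particular to Dlg2+ V. Of Mv2 cells, which should lack receptors, 12.6% to 20.8% showed at least 1 and 1.16% to 2.00% at least 2 at the same depth, so the share of neurons with a second receptor is not read as expression of it. Where a receptor had to have at least 2 UMIs, the difference was -0.78 ± 1.07 points, negative in 3 of 4 mice and 0.498 in mouse 1 (exact p 0.375). Neurons with a second highly expressed receptor had been left out of the clustering by the authors.

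**Figure D5:**
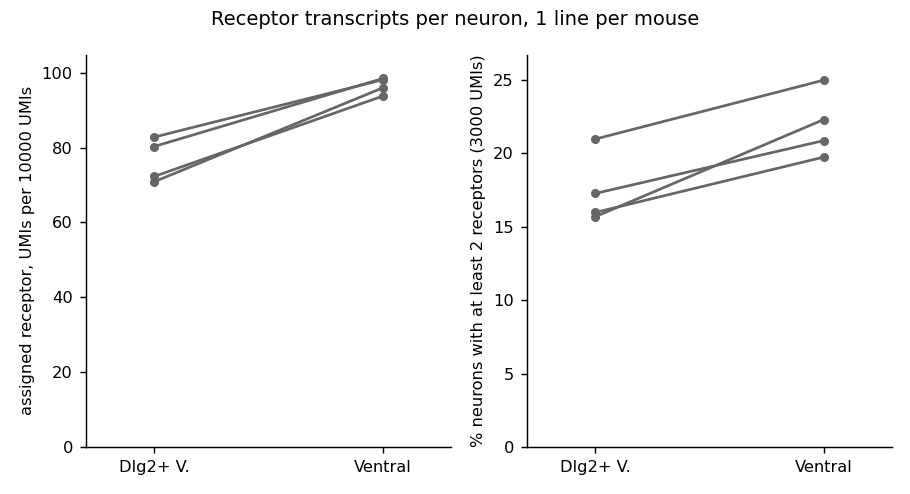
Left, mean level of the assigned receptor in UMIs per 10000 UMIs; right, percentage of neurons with at least 2 detected receptors after thinning to 3000 UMIs; each line joins Dlg2+ V. and Ventral of 1 mouse. In all 4 mice both values were lower in Dlg2+ V., from 70.8 to 82.8 against 93.7 to 98.5 UMIs per 10000 on the left.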

How the data were processed

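The 4 libraries were made with the 10x Genomics 3′ v3.1 chemistry, 1 per mouse. Per the labels and the methods, the authors mapped the reads with Cell Ranger 6.0.1 to GRCm38 and an Ensembl annotation with receptor 3′ ends that they redrew, and deposited raw UMI counts per gene and barcode. Cell Ranger was run with default settings, under which reads antisense to a gene are not counted for it. The authors also deposited a cell table with cluster names, a receptor identity per neuron and a percent of mitochondrial counts. Per the methods they left out blood, immune and dying cells and, before clustering, neurons with a second receptor above an expression limit (their treatment of doublets) and populations of under 3 neurons. They clustered the mature OSNs of the 4 mice jointly after integration. No doublet caller was run here.

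Counts were summed per mouse and cluster or receptor set, and levels are UMIs per 10000. Tests used edgeR 4.0.16 in R 4.3.3 (quasi-likelihood, TMM and filterByExpr for genes, neuron totals as library sizes for receptors, adjusted p under 0.05). The SE of a log2 change was its size divided by the square root of the quasi-likelihood F statistic. DESeq2 1.42.0, no replicate block, other filters, thinning and each mouse left out were alternatives. Summaries were made with Python 3.11.15, and proteins were aligned with MAFFT 7.526. Both groups of a comparison come from the same animal and library, so the mouse was a block. Deviations from the group means correlated at 0.382, 0.193, 0.160 and 0.151 within mice 1 to 4, against at most 0.069 between mice. Neurons were not treated as replicates. The scripts were tested on simulated data.

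Named genes were the markers, the up to 4 largest calls per list and direction with a log2 change of at least 0.5, and the 12 and 8 largest changes upward and downward that had the same direction in 4 of 4 mice and at least 0.5 UMIs per 10000. Named receptors were the 10 with most neurons in the cluster and populations split 30% to 70%. Other members of a list are named where the count of the list turns on them, and other receptors after their values were seen. The members and lists were chosen with earlier results of these data known. Intervals and floors cover counting error only. The values of 1 list member are not reported here.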

Additional observations from a re-analysis of the deposited data

Results flagged for a closer look

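A mouse stood far from the other 3 (its gap to the nearest over the whole range was above Dixon's 95% critical value, which chance alone gives in about 1 of 20 groups) in 9 of 137 groups of 4 values. In Dlg2+ V. these were *S100a5* at 510 UMIs per 10000 in mouse 2 against 620 to 633, *Kirrel2* at 15.4 in mouse 3 against 10.8 to 11.3, *Nqo1* at 0.204 in mouse 4 against 0.545 to 0.612, and *Btg2* at 0.296 in mouse 4 against 0.198 to 0.214. The same held for the summed sustentacular genes at 0.348 in mouse 3 against 0.204 to 0.221, for the summed hemoglobin genes at 3.42 in mouse 2 against 0.103 to 0.632, and for the share of *Olfr1222* neurons at 4.74% in mouse 2 against 1.72% to 2.21%. In Ventral they were *Nrxn2* at 0.110 in mouse 1 against 0.178 to 0.189 and *Pcdh8* at 0.550 in mouse 2 against 0.472 to 0.485. For *S100a5*, *Kirrel2* and *Pcdh8* the 2 clusters did not overlap even so.

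*Acsm4*, an acyl-CoA synthetase gene of dorsal neurons, differed in opposite directions on the 2 sides of the epithelium. It was 0.0834 UMIs per 10000 higher in Dlg2+ V. than in Ventral (0.254 and 0.171) and changed by -0.591 between Dlg2+ D. and Dorsal (4.54 and 5.13), each in 4 of 4 mice. The difference between the 2 contrasts was not tested.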

How the results depend on the processing

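The number of receptors over-represented in Dlg2+ V. (19) ranged from 3 to 13 with 1 mouse left out and that of under-represented receptors (13) from 0 to 3. The over count was 12 with at least 20 neurons per receptor, 29 without a filter and 8 on receptor UMI sums. These settings tested 78, 610 and 183 receptors. The under count was 22, 5 and 114 under the same settings, so on receptor UMI sums most receptors tested were called under. It was 5 of 183 with DESeq2 and 7 of 238 against all other ventral clusters. Genes higher (481) ranged from 204 to 362 and genes lower (520) from 213 to 354 with 1 mouse left out. They were 232 and 195 with DESeq2 and 293 and 272 after thinning to 3000 UMIs, of 11182 and 9566 genes tested. Without the filter on low counts 299 were higher and 633 lower, of 22000 tested. Leaving out the *Olfr1326-ps1* neurons, chosen after seeing the data, gave 454 and 464 of 11114.

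Without the mouse as a block, which pairs the 2 groups of each animal, 253 genes were higher and 254 lower, of 10529 tested. Of 183 receptors, 25 were over- and 31 under-represented under this setting. Of the 54 named genes 4, among them *Nfix* and *Nqo1*, then lost their calls, and 4 named receptors gained one. Over all alternatives 470 of 538 values of named genes kept their direction and side of the threshold, and 67 missed the threshold. With 1 mouse left out *Nqo1* (0.70) lay between -0.043 without mouse 2 and 0.38 without mouse 3. Of the 54 named genes 36 kept every call. Where losses with a mouse left out are named above, some calls were lost in other alternatives too, such as *Cngb1* after thinning (edgeR adjusted p 0.0534).

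The share of the cluster (8.39%) was 7.77% in the clustering that kept receptor genes, where 682 of the 797 neurons (85.6%) had the same name. The means of receptor level and multi-receptor share kept their direction in every alternative, although the latter shrank from -4.68 to -0.78 percentage points, with mouse 1 reversed, where a receptor needed at least 2 UMIs. With 4 mice these 2 could not reach the threshold in the exact sign-flip test used for them, and per-gene spread was estimated mainly from all genes together. The causes of these shifts were not tested.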

Other observations

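*Avp*, the vasopressin gene, differed in sign between the 2 ways of grouping neurons, and was named after its values were seen. Of 1852 *Avp* UMIs in clustered neurons, 536 were in Dlg2+ V., 1299 in Ventral and 17 elsewhere. In Dlg2+ V. they fell as 485, 13, 7 and 31 UMIs in mice 1 to 4, in 24 neurons, of which 2 had at least 10 UMIs. Neurons of *Olfr1346* held 635 of the UMIs, 479 of them in Dlg2+ V., and *Olfr1508* held 582, *Olfr729* 275 and *Olfr741* 214, together 92.1%. Grouped by receptor, *Avp* was lower in neurons with Dlg2+ V. receptors (log2 -4.47, edgeR adjusted p 2.41e-48; DESeq2 -3.66, adjusted p 0.00618). The transcript thus sat in a few neurons of a few identities, and neither value describes the cluster as a whole.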
